A study of Mus musculus with 3 samples.

Results

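Ly6a, Ly6c1, Ly6c2, Ly6d and Ly6e are 5 genes for Ly6 surface antigens of mouse blood cells. They were chosen by symbol, and all 5 are among the 32285 genes of the deposited count tables. The data are single-cell RNA-seq of blood mononuclear cells (10x Genomics 3' libraries) from C57BL/6 mice. There was 1 library in each of 3 groups, young mice given PBS for 1 month, aged mice given PBS for 1 month, and aged mice given AA for 1 month, here called young, aged and aged+AA. The series title names ascorbic acid, and the labels write AA. All 3 groups share the strain and the blood preparation. The ages in months, the number of mice behind each library and the dose of AA are not given in the sources used here. With 1 library per group no difference has a replicate check, so no test was run. Every interval below is a 95% interval for counting error and does not cover the spread between mice. PCR and capture effects are outside it as well.

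Ly6 proteins are small, disulphide-rich proteins that most members of the family hold at the outer face of the cell membrane through a glycosylphosphatidylinositol (GPI) lipid anchor. Several are the targets of antibodies used to sort mouse blood cells. Ly6a is Sca-1, used to mark haematopoietic stem cells and present on many T cells. Ly6c1 and Ly6c2 encode the 2 forms of Ly6C, an antigen of classical monocytes and memory CD8 T cells. Ly6d is an antigen of the B lineage, and Ly6e is a broadly expressed antigen of the same family. Ly6a, Ly6c and Ly6e are known as interferon-responsive genes.

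All 5 genes lie within 349.9 kb of chromosome 15 in the GRCm38 annotation (GENCODE). In order they are Ly6d at 74762056 to 74763620 on the minus strand, Ly6e at 74955051 to 74959905 on the plus strand, Ly6a at 74994877 to 74998031, Ly6c1 at 75044018 to 75048830 and Ly6c2 at 75108158 to 75111970. The last 3 are on the minus strand. Ly6c1 and Ly6c2 are near copies. Their coding sequences have the same 396 bases and match at 387 of them (97.7%), while Ly6a matched Ly6c1 at 83.8% and Ly6c2 at 83.6%, and the other pairs of members matched at 55.8% to 65.7%. The 9 coding differences, counted from the first coding base with the Ly6c1 base first and the Ly6c2 base last, are C8G, T10A, A16G, G31T, C36G, A65G, G254A, T327C and G376A. The last 150 coding bases of each are shown because they hold 3 of these differences, marked by capitals, and lie near the transcript end that the assay reads.
Ly6c1: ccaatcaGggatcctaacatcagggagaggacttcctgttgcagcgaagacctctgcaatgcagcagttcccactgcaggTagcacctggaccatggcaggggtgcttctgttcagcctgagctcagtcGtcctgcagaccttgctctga
Ly6c2: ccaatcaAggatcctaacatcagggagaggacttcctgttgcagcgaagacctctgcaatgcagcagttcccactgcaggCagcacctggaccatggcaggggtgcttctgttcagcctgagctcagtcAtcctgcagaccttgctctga

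The last 400 transcript bases of Ly6c1 and Ly6c2 matched at 386 of 393 aligned positions (98.2%). Of all 50-base windows there, 23.4% of those of Ly6c1 and 25.1% of those of Ly6c2 also occur in the other gene, and 11.3% of 90-base windows do. None of these windows of Ly6a, Ly6d or Ly6e occurs in another member. A read inside a shared window cannot be given to 1 of the 2 genes, so the split between Ly6c1 and Ly6c2 carries an uncertainty that counting intervals do not hold. Whether the counting used the strand of the reads is not given in the sources used here.

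The sequences upstream of Ly6c1 and Ly6c2 have diverged further than their coding parts. RefSeq start-site windows (GRCm38.p6) were matched for these 2 of the 5 members. The 250 bases before the start are printed because the 2 genes were detected in different cells. They span chr15:75048838-75049087 for Ly6c1 and chr15:75111972-75112221 for Ly6c2, both on the minus strand. Capitals mark matches to the motifs searched.
Ly6c1: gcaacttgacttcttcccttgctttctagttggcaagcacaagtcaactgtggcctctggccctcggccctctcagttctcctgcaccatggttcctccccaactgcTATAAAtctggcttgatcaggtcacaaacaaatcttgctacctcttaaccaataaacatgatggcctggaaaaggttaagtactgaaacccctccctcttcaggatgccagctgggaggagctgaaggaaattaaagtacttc
Ly6c2: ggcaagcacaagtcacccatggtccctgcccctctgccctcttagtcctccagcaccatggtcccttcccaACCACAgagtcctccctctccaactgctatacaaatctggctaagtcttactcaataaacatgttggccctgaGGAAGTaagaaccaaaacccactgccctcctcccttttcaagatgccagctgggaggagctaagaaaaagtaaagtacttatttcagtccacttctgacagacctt

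Aligned, the 2 windows matched at 164 of 216 positions (75.9%). The Ly6c1 window holds the TATA motif TATAAA, 143 to 138 bases before the start, which 12.4% of all 32851 windows of this length hold. The Ly6c2 window holds the RUNX motif TGTGGT on its other strand, 179 to 174 bases before the start (14.0% of all windows), and the ETS motif GGAAGT, 106 to 101 bases before it (19.7%). No match was found in either window for the interferon motif ISRE, spelled GAAA, any 2 bases and GAAA (2.98% of windows), the interferon motif TTCNNNGAA (7.02%), the T-box motif GGTGTGA (3.33%) or the TCF/LEF motif CTTTGA (13.8%), all searched on both strands. These motifs do not overlap each other in the 2 windows, and a match is a match of letters only.

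Cells were assigned by marker genes of which none is a Ly6 gene. The filters kept 8483 young cells, 8724 aged cells and 10444 cells after AA, and the 3 deposited tables held, in this order, 64496639, 94944551 and 80424480 UMIs. A UMI is 1 counted transcript molecule. In the order young, aged and aged+AA there were 1320, 249 and 875 naive CD8 T cells, 296, 486 and 1143 memory CD8 T cells, 834, 190 and 313 naive CD4 T cells, 71, 217 and 235 memory CD4 T cells, 2342, 3697 and 4683 B cells, and 303, 220 and 164 NK cells. Monocytes were counted mainly in the aged library, with 3, 515 and 13 classical and 36, 357 and 82 non-classical cells. Ratios were formed only for groups of at least 50 cells in both libraries, apart from a subset of memory CD8 T cells named where it is used, so no classical monocyte ratio is given and the aged library alone supplies that group's level. Memory cells made up 14.7%, 58.8% and 50.9% of CD8 T cells and 6.88%, 43.0% and 35.7% of CD4 T cells.

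Levels are given in CPM, a gene's UMIs divided by all UMIs of the cell group and scaled to the same total in every group. The naive and memory gates differed in genes outside them. S100a6, a calcium-binding protein of memory T cells, stood at 2.86, 33.0 and 19.3 CPM in naive CD8 T cells and at 303, 1303 and 694 CPM in memory CD8 T cells. Cd44, the usual memory antigen, stood at 10.4, 18.6 and 7.97 CPM in naive and at 71.2, 106 and 98.4 CPM in memory CD8 T cells. The naive gates of the aged library therefore held more S100a6 than those of the other libraries, most so in naive CD4 T cells (7.12, 151 and 26.3 CPM). The libraries also differed as a whole. Ribosomal protein genes took 37.7%, 25.7% and 33.4% of UMIs and mitochondrial genes 5.26%, 2.83% and 4.48%. The 4 haemoglobin genes reached 1203, 7824 and 2626 CPM in B cells, and all 5 neutrophil markers together 7.30, 1413 and 351 CPM, while no T cell marker had a UMI there by the rule of the gate. The part of these differences in the values below was not tested beyond the alternatives given. Pairs of libraries shared 21 to 24 cell barcodes, and none was in all 3.

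Among groups of at least 50 cells, Ly6a was highest in memory CD4 T cells and B cells and near its floor in NK cells. In memory CD4 T cells it stood at 272 CPM (227 to 323) in the young, 542 CPM (497 to 590.1) in the aged and 448 CPM (411 to 488) in the aged+AA library. B cells had 327, 377 and 308 CPM and naive CD4 T cells 104, 278 and 184 CPM. The aged and aged+AA libraries were above the young library in naive CD4 T cells and their intervals did not overlap it. CD8 T cells had far less Ly6a in the young library. Naive CD8 T cells stood at 28.0 CPM (24.3 to 32.1), 164 CPM (143 to 187) and 92.8 CPM (84.6 to 102), and memory CD8 T cells at 32.8 CPM (25.8 to 41.0), 141 CPM (127 to 156) and 76.9 CPM (71.0 to 83.1). In both CD8 gates the young library was lowest, the aged library highest and the aged+AA library between them, with no overlap. NK cells held 1, 14 and 1 Ly6a UMIs in all, under the 50 UMIs required for a ratio. Non-classical monocytes had 45.0 CPM in the aged and 26.3 CPM in the aged+AA library. Foxp3-positive regulatory T cells, only 21, 31 and 14 in number, had 156, 551 and 288 CPM. The makeup of free RNA was taken from nearly empty droplets, and its amount from the median haemoglobin share of each cell group. All haemoglobin in a cell was thereby counted as free RNA, and the estimate can exceed the level measured. By this estimate free RNA would supply 1.70% to 3.84% of the Ly6a level in naive CD8 T cells and 0.439% to 1.32% in B cells.

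Within each T cell group and in B cells, the share of cells with a Ly6a UMI followed the order of the levels between libraries. After each cell was thinned to 1000 UMIs, 1.74%, 12.05% and 7.66% of naive CD8 T cells held one, in the order young, aged and aged+AA. Without thinning the shares were 9.47%, 45.8% and 29.9%, at median depths of 5488, 5592 and 5659 UMIs per cell. The thinned shares were 4.05%, 13.2% and 8.50% in memory CD8 T cells, 7.79%, 20.5% and 14.4% in naive CD4 T cells, 23.9%, 36.4% and 30.2% in memory CD4 T cells and 24.1%, 27.0% and 22.1% in B cells. In NK cells, used as the low comparison, they were 0 of 296, 3 of 215 and 0 of 155 cells, and the exact binomial (Clopper-Pearson) interval of 0 of 296 reaches 1.24%. Cells under 1000 UMIs were left out of these shares, 3, 14 and 5 B cells, 7, 5 and 9 NK cells and 2 memory CD8 T cells of the aged+AA library.

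Ly6c1 was highest in naive CD4 T cells among the groups of at least 50 cells. It stood there at 122 CPM (111 to 133) in the young, 62.9 CPM (47.1 to 82.2) in the aged and 86.9 CPM (72.7 to 103) in the aged+AA library. The young level lay above both others, and the aged and aged+AA intervals overlapped. Memory CD4 T cells had 7, 4 and 11 Ly6c1 UMIs (14.6, 4.09 and 9.33 CPM). Naive CD8 T cells had 60, 5 and 23 UMIs (8.18, 3.58 and 4.58 CPM), and memory CD8 T cells 6, 2 and 2 UMIs. B cells held 4, 1 and 8 UMIs in all and non-classical monocytes none. The small group of Foxp3-positive regulatory T cells, 21, 31 and 14 cells, had 11, 9 and 5 Ly6c1 UMIs (90.4, 55.8 and 62.5 CPM).

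Ly6c2 was the Ly6C gene of classical monocytes, memory CD8 T cells and NK cells. Classical monocytes of the aged library held 6302 UMIs, or 1177 CPM (1148 to 1206). Memory CD8 T cells stood at 632 CPM (599.7 to 665), 860.1 CPM (825 to 896) and 811 CPM (792 to 831) in the young, aged and aged+AA libraries, so that both aged libraries were above the young one. NK cells stood at 571, 410.2 and 667 CPM, with the aged library lowest. Naive CD8 T cells had 163, 219.9 and 142 CPM, below the memory cells in each library. Neutrophils and plasma cells of the aged library had 339.5 and 257.5 CPM. Memory CD4 T cells had 62.7, 68.5 and 58.5 CPM, with overlapping intervals. Naive CD4 T cells held 6, 3 and 6 UMIs, of which free RNA would supply 74.7%, 126% and 74.3%, a level at background. B cells had 6.62, 16.7 and 7.05 CPM, of which free RNA would supply 20.7%, 34.2% and 50.7%. Non-classical monocytes had 26.0 CPM in the aged and 10.5 CPM in the aged+AA library.

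The Ly6C gene in use thus differed between naive CD4 T cells and the memory CD4, naive CD8 and memory CD8 T cell groups. Ly6c1 took 98.8%, 94.6% and 95.7% of all Ly6c1 and Ly6c2 UMIs in naive CD4 T cells but 18.9%, 5.63% and 13.8% in memory CD4 T cells. In naive CD8 T cells it took 4.79%, 1.60% and 3.13%, and in memory CD8 T cells 0.408%, 0.0864% and 0.0300%. Classical monocytes of the aged library had 1 Ly6c1 UMI beside 6302 of Ly6c2 (0.0159%). CD4 T cells that passed neither the naive nor the memory gate also held more Ly6c1, with 48, 3 and 20 UMIs beside 10, 0 and 4 of Ly6c2. The few regulatory T cells did too, with 11, 9 and 5 beside 0, 2 and 1. Over all CD4 T cells the Ly6c1 share was 92.1%, 46.2% and 67.4%. The CD4 T cells of the aged library thus held similar numbers of Ly6c2 and Ly6c1 UMIs, 70 and 60.

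Ly6d was the B cell member. B cells held 2172 CPM (2141 to 2202) in the young, 2079 CPM (2054 to 2104) in the aged and 2079.6 CPM (2059 to 2101) in the aged+AA library. At 1000 UMIs per cell, 78.0%, 77.7% and 78.6% of B cells had a Ly6d UMI. Plasma cells, 5, 44 and 31 in number, had 1745, 747 and 762 CPM. In the T and NK groups, and in monocyte groups of at least 50 cells, Ly6d stood between 2.59 and 30.7 CPM. Free RNA held 387, 584 and 948 CPM of Ly6d, and it would supply 67.2% to 234% of those levels, so they were not told apart from background. In naive CD8 T cells 0.379%, 1.20% and 2.17% of thinned cells had a Ly6d UMI.

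Ly6e was detected in every group gated. Non-classical monocytes had 1460 CPM in the aged and 1429 CPM in the aged+AA library, and classical monocytes 1359.8 CPM in the aged library. B cells stood at 1314, 1382 and 1224 CPM. The naive and memory T cell groups stood well below B cells. The values were 476, 457 and 398 CPM in naive CD4 and 514, 575 and 475 CPM in memory CD4 T cells. They were 329, 416 and 299 CPM in naive CD8 and 368, 423 and 383 CPM in memory CD8 T cells. The 21, 31 and 14 regulatory T cells had more, at 748, 1270 and 925 CPM. NK cells were lowest with 213, 301 and 179 CPM. The aged library was highest in the CD8, memory CD4, B and NK groups, and the young library in naive CD4 T cells. The plot of member levels by cell group shows these values on a log axis.

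**Figure D1:**
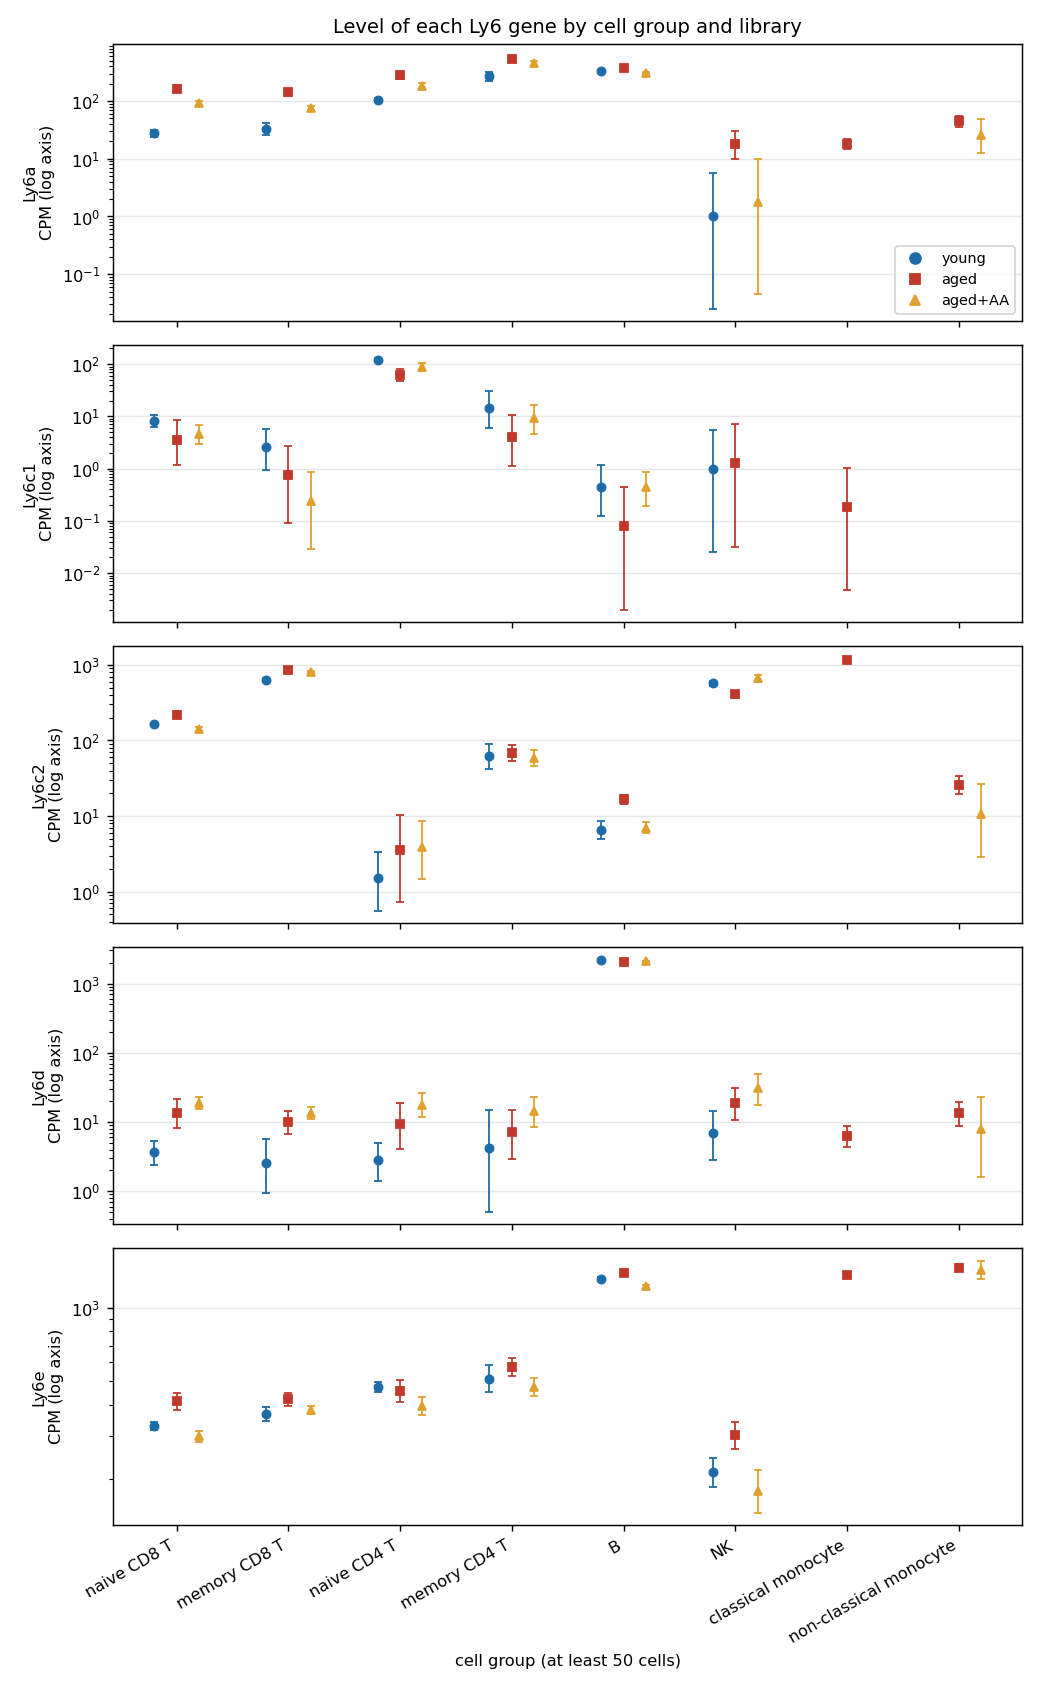
Level of each member (CPM, log axis, 1 panel per gene) in each gated cell group and library (young, aged, aged+AA), with bars for the 95% Poisson counting interval; groups with no UMI have no point. Ly6d stands at 2079 to 2172 CPM in B cells and at 2.59 to 30.7 CPM in T and NK cells, Ly6c1 is highest in naive CD4 T cells, and Ly6c2 in classical monocytes and memory CD8 T cells.

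The groups fell in a clear order for some members and not for others, by their median level and range over libraries. For Ly6a, memory CD4 T cells and B cells led and their ranges overlapped. Naive CD4 T cells came next, below the range of B cells but overlapping the lowest memory CD4 level, and naive CD8 T cells, memory CD8 T cells and non-classical monocytes each overlapped the group above. For Ly6c2, classical monocytes were above memory CD8 T cells, whose range overlapped that of NK cells, and naive CD8 T cells and memory CD4 T cells followed with no overlap. For Ly6e, memory CD4 T cells lay below B cells with no overlap, and naive CD4, memory CD8, naive CD8 T and NK cells each overlapped the group above.

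Comparing aged with young mice asks how the members differ with age inside 1 cell type. Ly6a was higher in the aged library in all 4 T cell groups and little different in B cells, and Ly6c1 was lower in naive CD4 T cells. Ly6c2 was 2.52 times as high in B cells, at a low level. Ly6d in B cells moved little, and Ly6e ratios ran from 0.960 in naive CD4 T cells to 1.41 in NK cells. A pair of member and cell group was counted as different where the ratio was at least 2 or at most 0.5 and the 2 libraries together held at least 50 UMIs. Of 30 pairs, 19 had enough UMIs, and 5 of these were different, 4 higher and 1 lower. The lower pair, Ly6c1 in naive CD8 T cells, lay within counting error. By cell group, 4.22% to 10.3% of all genes passed the same limit. The median ratio of all genes compared lay above 1, at 1.20 in naive CD8, 1.26 in memory CD8, 1.19 in naive CD4 and 1.12 in memory CD4 T cells, 1.22 in B cells and 1.05 in NK cells, which gives the level against which the members are read.

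Ly6a was 5.87 times as high in naive CD8 T cells of the aged library (4.84 to 7.12), and 0.145% of all genes compared had a ratio at or above this. There 7.10% of genes passed the 2-fold limit in either direction. With naive CD8 T cells that had no memory-gene UMI, a gate added after the data were seen, the ratio was 3.97, below the interval given. In memory CD8 T cells the Ly6a ratio was 4.31 (3.36 to 5.59), where 10.3% of genes passed and 0.617% had a ratio as high. With only cells under 5% mitochondrial UMIs that ratio was 2.75. Neutrophil markers stood at 416 CPM in the young and 180.3 CPM in the aged memory CD8 T cells, and their part was not tested. In naive CD4 T cells it was 2.66 (2.25 to 3.13), where 7.51% of genes passed, and it was 1.92 when the gates were set on cells thinned to 1500 UMIs. In memory CD4 T cells it was 1.99 (1.64 to 2.43), just short of the limit that 7.90% of genes passed. In B cells it was 1.15 (1.10 to 1.21), where 8.54% of genes passed and 57.6% of genes had a ratio as high or higher, and it was 0.943 when scaled by the median gene. Ly6a in NK cells stood at 1.00 and 17.8 CPM from 1 and 14 UMIs, with no ratio formed.

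Ly6c1 was lower in naive CD4 T cells of the aged library. The ratio was 0.516 (0.381 to 0.687) in naive CD4 T cells, from 479 young and 53 aged UMIs. It passed the limit of 0.5 in 6 of 11 alternatives, with a range from 0.357 to 0.537. In naive CD8 T cells it was 0.438 (0.137 to 1.08), from 60 and 5 UMIs, so the difference there lay within counting error.

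Ly6c2 was 1.35 times as high in naive CD8 T cells (1.19 to 1.53) and 1.36 times in memory CD8 T cells (1.27 to 1.45), close to the median gene of each group. It was 1.09 times as high in memory CD4 T cells (0.700 to 1.74), where the interval reaches both below and above 1, and it was as low as 0.638, as a mean over cells. In NK cells it was 0.718 times as high (0.625 to 0.825), against a limit that 4.22% of genes passed there. The ratio in B cells was 2.52 (1.88 to 3.42), at levels of 6.62 and 16.7 CPM. It was 4.73 with cells under 5% mitochondrial UMIs. Neutrophils, which held 339.5 CPM of Ly6c2 in the aged library, left more of their markers in aged B cells (7.30 against 1413 CPM), and their part in this ratio was not tested.

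Ly6d in B cells was 0.957 times as high in the aged library (0.939 to 0.975). Ly6e ratios were 1.26 in naive CD8, 1.15 in memory CD8, 0.960 in naive CD4 and 1.12 in memory CD4 T cells and 1.05 in B cells. The naive CD8 ratio lay above the median gene of its group, that of memory CD4 T cells at it and the other 3 below it. Those of memory CD8 T and B cells lay below 1, at 0.912 and 0.859 at the lowest, under other scalings. NK cells had the highest Ly6e ratio, 1.41 (1.17 to 1.71).

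Comparing aged mice given AA with aged mice given PBS asks how the same levels differ after AA. Ly6a was lower in the aged+AA library in all 4 T cell groups and in B cells, though in no group by 2-fold, and Ly6d in B cells was the same within counting error. Of 35 pairs, 23 had enough UMIs and 2 were at least 2-fold lower, both of Ly6c2, and none was 2-fold higher. By cell group, 1.84% to 3.32% of all genes passed the limit. Both comparisons use the aged library, so a high or low value in it enters both in opposite directions, and their values are given side by side only. The median ratio of all genes was 0.914 in naive CD8, 0.884 in memory CD8, 0.933 in naive CD4 and 0.954 in memory CD4 T cells, 0.896 in B cells, 0.990 in NK cells and 1.03 in non-classical monocytes.

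The Ly6a ratio was 0.566 (0.482 to 0.666) in naive CD8 T cells, where 2.68% of genes passed the 2-fold limit and 95.5% of genes had a higher ratio. It was 0.544 (0.478 to 0.619) in memory CD8 T cells, where 2.61% passed and 96.4% had a higher ratio. In CD4 T cells it was 0.664 (0.556 to 0.793) in the naive group and 0.827 (0.731 to 0.934) in the memory group, where 2.58% and 1.84% of genes passed. In B cells it was 0.816 (0.785 to 0.849). In non-classical monocytes it was 0.583 (0.271 to 1.12), from 10 and 90 UMIs and within counting error, where 3.32% of genes passed. That ratio was 0.209 with gates set on cells thinned to 1500 UMIs. In memory CD4 T cells 73.1% of genes had a ratio as high or higher, and in B cells 65.9%. Under the alternatives the Ly6a ratio reached 0.791 in naive CD8, 0.676 in memory CD8 and 0.952 in naive CD4 T cells. It reached 0.910 in B cells. These 4 values lie above their counting intervals and below 1. Against the young library, the aged+AA level of Ly6a was 3.32 times as high in naive CD8 T cells (2.81 to 3.93), 2.34 times in memory CD8 T cells (1.85 to 3.01), 1.76 times in naive CD4 T cells and 0.943 times in B cells.

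Ly6c2 was lower in the aged+AA library in naive CD8 T cells, with a ratio of 0.645 (0.563 to 0.740), and closer to equal in memory CD8 T cells, with 0.943 (0.899 to 0.989) and up to 1.06 under other scalings. When naive CD8 T cells were restricted to those with no memory-gene UMI, a gate added after the data were seen, the ratio was 0.389. In B cells it was 0.422 (0.336 to 0.528), where 2.55% of genes passed, and 0.522 as a mean over cells. In non-classical monocytes it was 0.404 (0.106 to 1.10), from 4 and 52 UMIs and within counting error, where 3.32% of genes passed. It was 0.866 with predicted doublets kept and 0.505 with no limit on haemoglobin. NK cells went the other way, with 1.63 (1.40 to 1.89), where 2.41% of genes passed. Ly6c1 in naive CD4 T cells had a ratio of 1.38 (0.998 to 1.94), and 2.18 with gates set on cells thinned to 1500 UMIs.

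Ly6d in B cells had a ratio of 1.00 (0.985 to 1.02). Its ratios in naive and memory CD8 T cells, 1.41 and 1.36, were formed at background levels while the free RNA itself held 584 CPM of Ly6d in the aged and 948 CPM in the aged+AA library. Ly6e ratios were 0.719 in naive CD8, 0.904 in memory CD8, 0.871 in naive CD4 and 0.827 in memory CD4 T cells, 0.886 in B cells, 0.595 in NK cells (0.466 to 0.755) and 0.979 in non-classical monocytes. All 7 lay below 1, and all except that of memory CD8 T cells below the median gene of their group. The memory CD8 ratio reached 1.02 under another scaling.

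**Figure D2:**
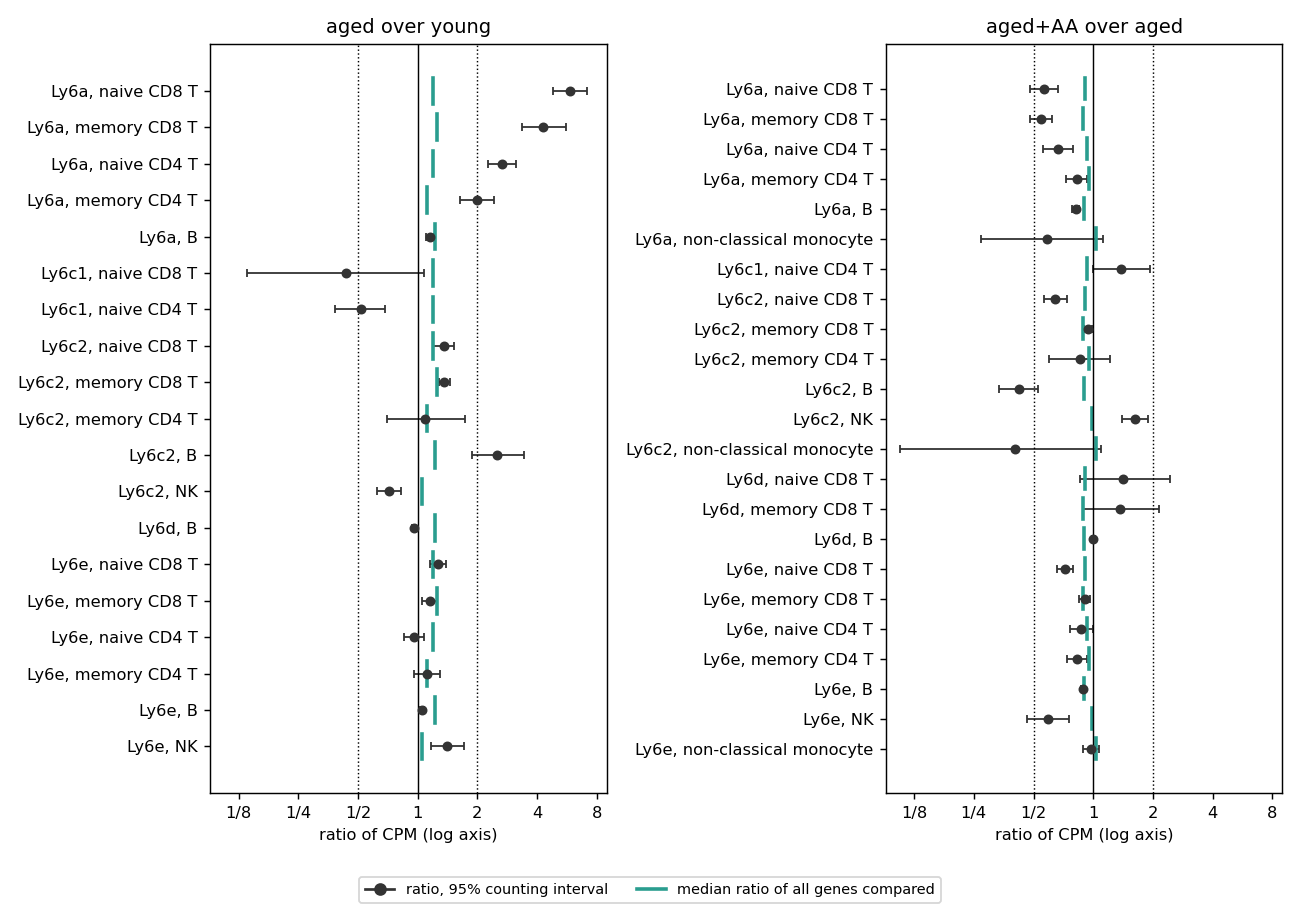
Ratio of CPM (log axis) for each member and cell group with enough UMIs, aged over young on the left and aged+AA over aged on the right, with bars for the 95% counting interval, dotted lines at 2-fold and teal marks for the median ratio of all genes in that group. Ly6a in CD8 T cells stands farthest above the marks on the left, from 4.31 to 5.87. On the right it lies below them, from 0.544 to 0.566. Ly6c2 in B cells (0.422), Ly6c2 and Ly6a in non-classical monocytes (0.404 and 0.583) and Ly6e in NK cells (0.595) lie farther below theirs.

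Memory and naive T cells were compared inside each library, where library-wide effects are shared. Ly6c2 was higher in memory cells of both lineages in all 3 libraries, Ly6c1 was lower in memory CD4 cells, Ly6a was higher in memory CD4 but not memory CD8 cells, and Ly6e differed little. By lineage and library, 4.04% to 11.1% of all genes were at least 2-fold different. Of 30 pairs, 22 had enough UMIs and 11 were at least 2-fold different, 7 higher and 4 lower. With gates set on cells thinned to 1500 UMIs, 6 pairs of 15 were.

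In CD8 T cells the memory over naive ratio of Ly6c2 was 3.88 (3.59 to 4.19) in the young library, where 4.04% of genes passed the 2-fold limit. It was 3.91 (3.47 to 4.42) in the aged library, where 8.02% passed, and 5.72 (5.29 to 6.19) in the aged+AA library, where 7.32% passed. The last was 10.5 with naive cells that had no memory-gene UMI. In CD4 T cells it was 19.3 (6.31 to 95.7) in the aged library and 14.8 (6.47 to 41.8) after AA, and 30 memory against 6 naive UMIs gave 41.1 (16.8 to 121) in the young library, under the UMI minimum. The naive counts behind these CD4 ratios were at background, so their size is uncertain, and alternatives ran from 5.40 to 54.9. The ratio of Ly6c1 in CD4 T cells was 0.120 in the young library, where 11.1% of genes passed, 0.0651 in the aged library, where 9.55% passed, and 0.107 in the aged+AA library, where 11.1% passed. Over the 3 libraries its alternatives ran from 0.0421 to 0.144. It was 0.316 (0.112 to 0.730) in young CD8 T cells, and 0.152 as a mean over cells.

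Ly6a was 2.60 (2.12 to 3.18), 1.95 (1.67 to 2.29) and 2.43 (2.10 to 2.82) times as high in memory as in naive CD4 T cells, in the order young, aged and aged+AA. In CD8 T cells the ratios were 1.17 (0.889 to 1.53), 0.861 (0.729 to 1.02) and 0.828 (0.733 to 0.935). The young ratio was 1.98 with cells under 5% mitochondrial UMIs and 0.869 with naive cells that had no memory-gene UMI, so its direction was not settled. Ly6e ratios ran from 1.02 to 1.28 over both lineages and all libraries.

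T cells were also ordered by their memory-gene UMIs. The bins use the memory genes and cells of the gates and break at the gate cuts, so they are no separate check. Median depth in the lowest and highest CD8 bins was 5285 and 7646 UMIs per cell in the young library. It was 5368 and 5025 in the aged library. In young CD8 T cells Ly6c2 stood at 138 CPM with 0 to 1 memory-gene UMIs, 291 CPM with 4 to 8 and 541 CPM with 9 to 19. In the aged library it ran from 154 CPM at 0 to 1 to 928 CPM at 40 or more, and in the aged+AA library from 105 to 838 CPM. Ly6a did not follow this order in CD8 T cells, at 20.5 to 55.1 CPM in young, 113 to 204 CPM in aged and 58.9 to 96.0 CPM in aged+AA bins. At every bin of memory genes the aged library had more Ly6a than the young one. In CD4 T cells Ly6c1 went the opposite way to Ly6a, from 133 CPM at no memory-gene UMI to 0 at 12 or more in the young library, and from 64.3 to 6.25 CPM and 113 to 12.98 CPM in the others. CD4 bins of Ly6a ran from 234 to 559.8 CPM in aged T cells and from 184 to 472 CPM in those of aged+AA. Between the cuts lay 398, 91 and 227 CD8 T cells and 127, 98 and 110 CD4 T cells.

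**Figure D3:**
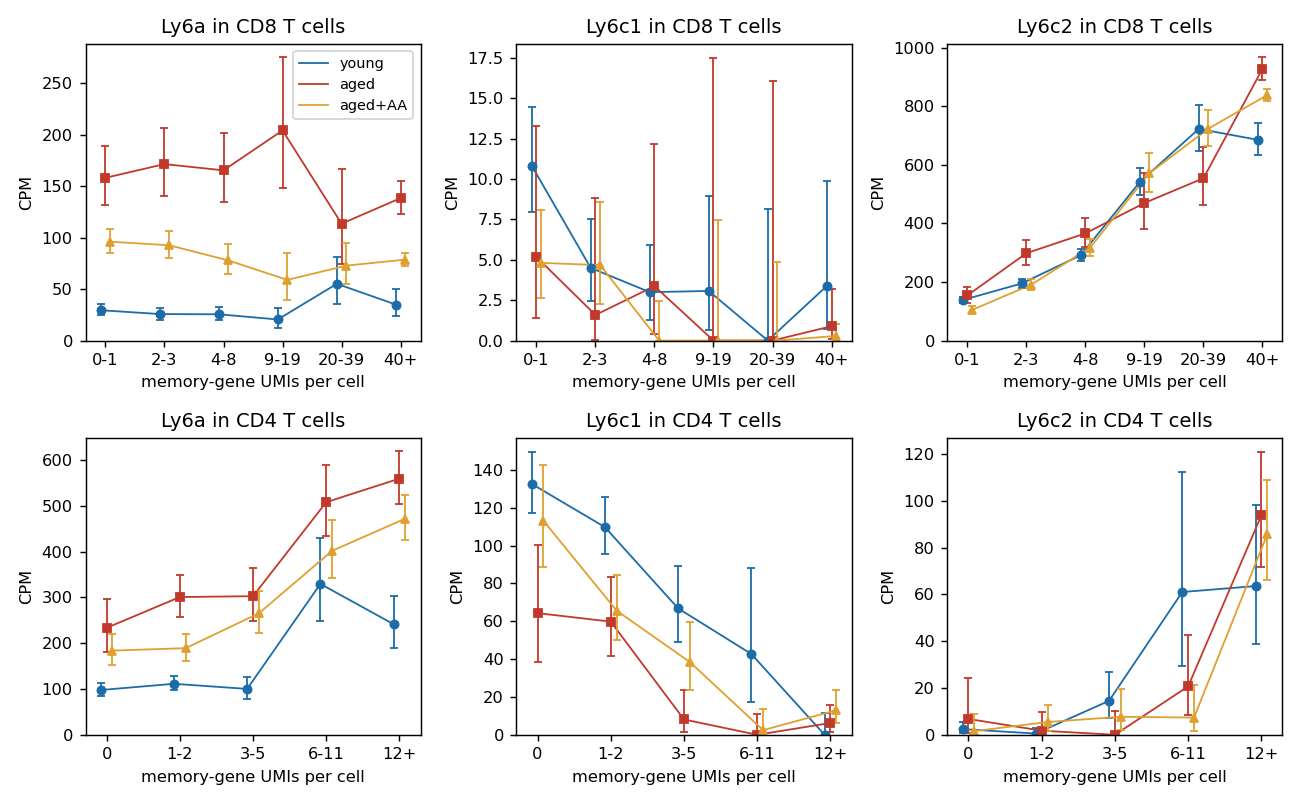
Level (CPM) of Ly6a, Ly6c1 and Ly6c2 in CD8 and CD4 T cells of each library, binned by the number of memory-gene UMIs per cell, with 95% counting intervals and only bins of at least 20 cells. Ly6c2 in CD8 T cells is 138 CPM in the lowest young bin and 685 CPM in the highest, and Ly6a in aged CD8 T cells stays between 113 and 204 CPM across bins.

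Because memory cells took a larger share of T cells in the aged library, levels over all CD8 or CD4 T cells mix a change of shares with a change inside the groups. Over all CD8 T cells Ly6c2 was 2.18 times as high in the aged as in the young library. It was 1.33 times with the aged levels weighted by the young shares, and the shares alone gave 1.61. For Ly6a in CD8 T cells the 3 figures were 5.34, 5.66 and 1.07; the shares alone moved it by little. Over all CD4 T cells the Ly6c2 ratio was 3.52, with 1.02 at young shares and 3.43 from shares alone, while Ly6a had 3.34, 2.56 and 1.49 and Ly6c1 0.260, 0.477 and 0.622. Between aged+AA and aged CD8 T cells Ly6a had 0.549, 0.546 and 1.00.

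Memory CD8 T cells were split in 2 parts by their naive-gene UMIs, a split looked at after the values above were seen. The split used UMIs without thinning, and cells with fewer naive-gene UMIs also held fewer UMIs in all. The part of depth in the values below was not tested. Cells with at least 4 naive-gene UMIs numbered 255, 277 and 907. Their Ly6a level was 19.8, 144 and 64.5 CPM, a ratio of 7.29 (5.26 to 10.3) of aged over young and 0.446 (0.384 to 0.520) of aged+AA over aged. The 41, 209 and 236 cells with under 4 naive-gene UMIs stood at 173, 134 and 158 CPM, with ratios of 0.773 (0.520 to 1.17), formed although the young part had only 41 cells, and 1.18 (0.922 to 1.52). In the young library Ly6a was thus higher in the small second part, while in the aged library both parts had it at similar levels. The young second part held 34 Ly6a UMIs, and the difference between the parts was not tested. Ly6c2 stood at 623, 955 and 844 CPM in the first part and at 727, 627 and 594 CPM in the second. Ly6e stood at 363, 491 and 400.2 CPM in the first and at 427, 256 and 268 CPM in the second, where the aged over young ratio was 0.599 (0.462 to 0.782). The second part held 13.9%, 43.0% and 20.6% of memory CD8 T cells.

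**Figure D4:**
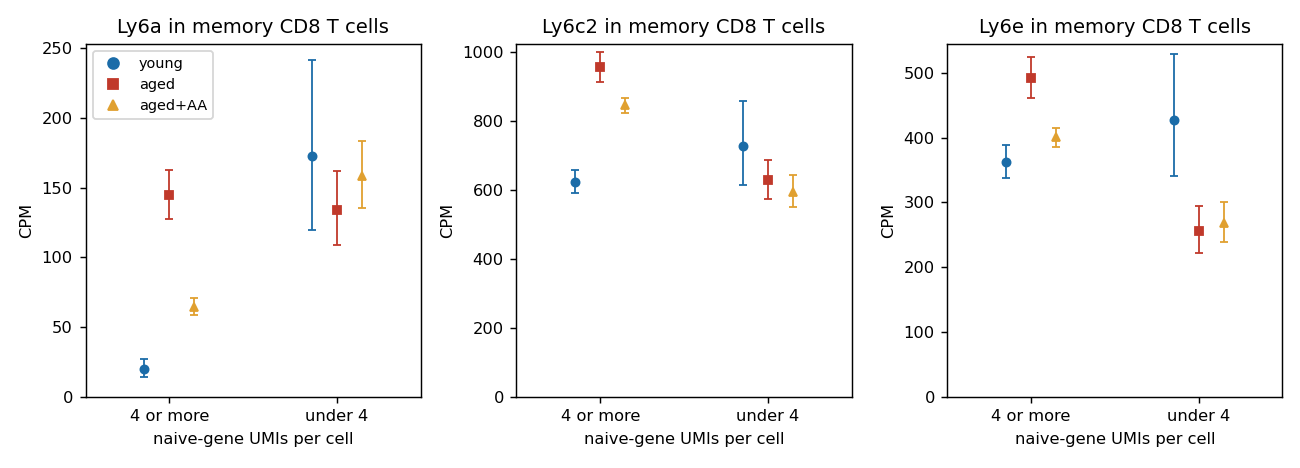
Level (CPM) of Ly6a, Ly6c2 and Ly6e in memory CD8 T cells with 4 or more and with under 4 naive-gene UMIs, for the 3 libraries, with 95% Poisson counting intervals. Ly6a differs between libraries in the first part (19.8 to 144 CPM), and in the second part the 3 intervals overlap (134 to 173 CPM).

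Ly6a and Ly6e are known interferon-responsive genes, so cells were also binned by their UMIs for 43 other genes of the interferon response after thinning to 1000 UMIs. In B cells Ly6a was higher in each further bin of 0 to 2, 3 to 5 and 6 or more such UMIs. It stood at 276, 338 and 611 CPM in the young library, at 292, 412 and 667 CPM in the aged library, and at 249, 313 and 590.4 CPM after AA. Aged memory CD8 T cells ran from 100.3 to 196 and 367 CPM, those of the aged+AA library from 61.2 to 152 and 361 CPM. Naive CD4 T cells of the aged library ran from 172 to 594 CPM, and those of aged+AA from 118 to 471 CPM. Young naive CD8 T cells stayed low in every bin, at 16.7, 19.2 and 20 CPM, the last from 1 UMI in 50 cells. Within the lowest bin the aged naive CD8 T cells had 113 CPM (65.6 to 180.3) against 16.7 CPM (9.55 to 27.1) in the young library. The other naive CD8 bins of the aged library had 169 and 111 CPM, the last from 3 UMIs in 27 cells (22.9 to 325 CPM). An order could not be judged there with so few UMIs. The naive CD8 bins of the aged+AA library had 61.8, 99.5 and 382 CPM. Ly6e ran from 1254 to 1592 CPM in young and from 1408 to 1443 CPM in aged B cells, a smaller ratio than that of Ly6a. In aged naive CD8 T cells it stood at 344, 437 and 704 CPM, the last from 19 UMIs in 27 cells.

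**Figure D5:**
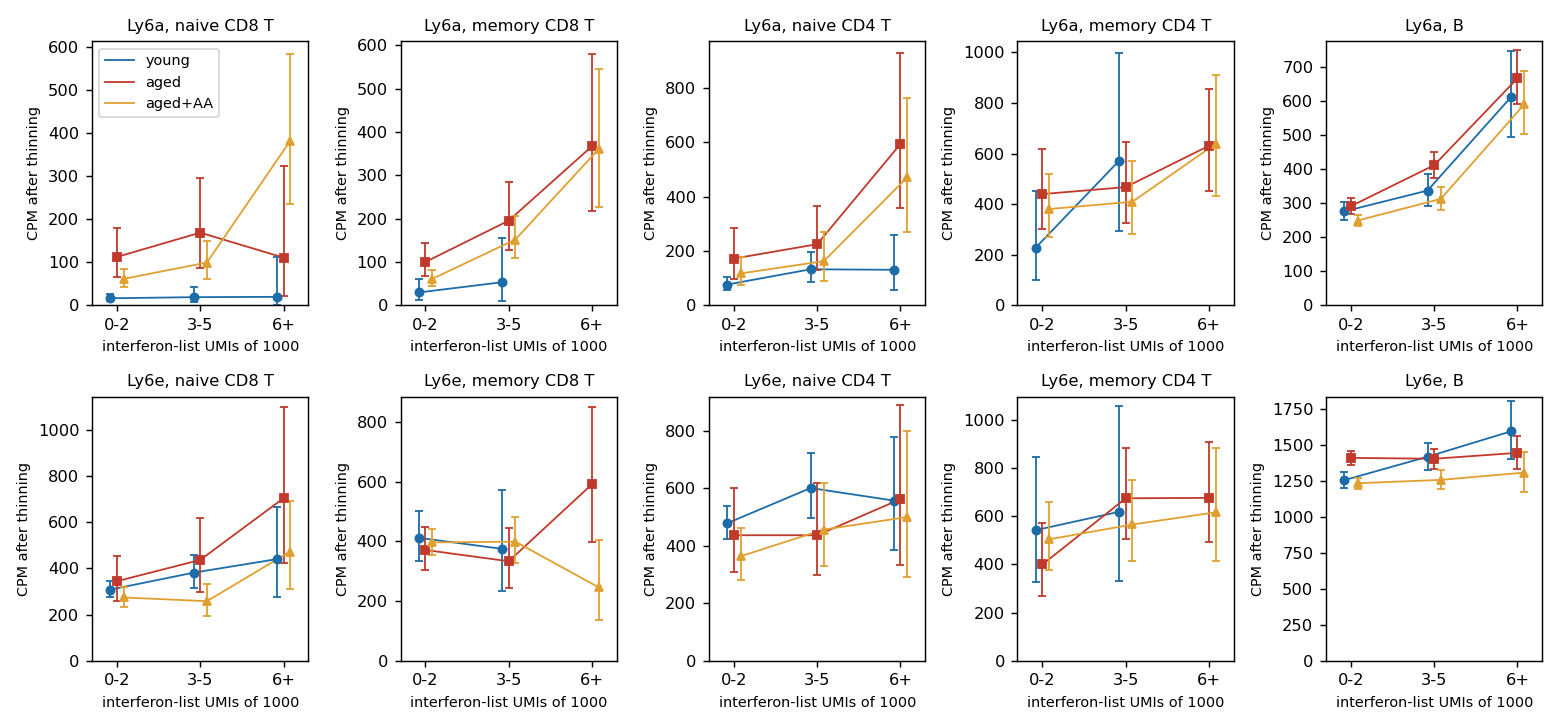
Level (CPM) of Ly6a and Ly6e in cells binned by the number of interferon-response UMIs of 1000, with the members left out of that list, for each library and 95% counting intervals. Ly6a in B cells is higher in each further bin of all 3 libraries, from 249 CPM at the lowest to 667 CPM at the highest.

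The interferon-response list was higher than all genes in most groups of the aged library. Of its genes 33 were compared in naive CD8 T cells, 5 were at least 2-fold higher and none 2-fold lower, with a median log2 ratio of 0.68 against 0.26 for all genes. The share of all genes past the limit was 7.10% there, 10.3% in memory CD8, 7.51% in naive CD4 and 7.90% in memory CD4 T cells, 8.54% in B cells and 4.22% in NK cells. In memory CD8 T cells 6 of 30 were higher and none lower (median 0.60 against 0.33), in naive CD4 T cells 4 of 27 (0.59 against 0.25), and in B cells 6 of 38 (0.50 against 0.29). In memory CD4 T cells 3 of 20 were higher, and the median equalled that of all genes (0.16), and in NK cells 2 of 17 (0.08 against 0.07). After AA, the list was lower than all genes in B cells, with 3 of 40 at least 2-fold lower and a median log2 ratio of -0.53 against -0.16, and in memory CD8 T cells, with 2 of 37 and -0.41 against -0.18. Of all genes, 2.55% and 2.61% passed the limit in these groups. Non-classical monocytes had 6 of 29 at least 2-fold lower (-0.52 against 0.04), where 3.32% of genes passed. Naive CD8 T cells had 2 of 31 (-0.32 against -0.13), where 2.68% passed. Naive CD4 T cells had 0 of 24 (-0.35 against -0.10), where 2.58% passed. Memory CD4 T cells (-0.09 against -0.07) and NK cells (0.06 against -0.01) had medians near those of all genes. Ifi27l2a, an interferon-induced gene, stood at 477, 891 and 626 CPM in naive CD8 T cells and at 354, 685 and 313 CPM in memory CD8 T cells. These list values come from the same libraries as the member values and do not support them independently.

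Other genes with a GPI anchor had a median ratio above that of all genes in every group compared between aged and young. In naive CD4 T cells 1 of 8 was at least 2-fold higher (median log2 ratio 0.65 against 0.25). In memory CD4 T cells 2 of 8 were (0.49 against 0.16), and in B cells 4 of 10 (0.54 against 0.29). In NK cells 2 of 6 were higher and 1 lower (0.51 against 0.07). The share of all genes past the limit in these groups was 7.51%, 7.90%, 8.54% and 4.22%. Of 9 compared in naive CD8 T cells, 2 were at least 2-fold higher (median log2 ratio 0.60 against 0.26 for all genes), and in memory CD8 T cells 1 of 8 was (0.77 against 0.33), where 7.10% and 10.3% of all genes passed. Thy1, the T cell surface antigen Thy-1, had ratios of 1.57 and 1.97 there, and Cd52, a short anchored glycoprotein of lymphocytes, 1.48 and 1.72. Bst2, tetherin, which is also on the interferon list, had 1.73 and 1.49. Genes of GPI anchor synthesis had medians near those of all genes, 0.28 against 0.26 in naive and 0.36 against 0.33 in memory CD8 T cells. None of 18 passed the limit in naive CD8 T cells, and 3 of 17 were at least 2-fold higher in memory CD8 T cells.

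Of 39 other genes of the Ly6 and uPAR family, 38 were in the tables, 14 had no UMI in any cell kept and 7 had at least 200. Plaur, the urokinase receptor, was the most abundant with 16680 UMIs. It was lower in the aged library, at 62.3 and 26.5 CPM in naive CD8 T cells (ratio 0.425, 0.296 to 0.595) and at 230 and 131 CPM in B cells (0.570). In naive CD8 T cells this was opposite to Ly6a. Cd177 and Ly6g, antigens of neutrophils, held 1615 and 829 UMIs. Ly6i, a Ly6C-like gene, held 866, and in non-classical monocytes it stood at 215 CPM in the aged and 134 CPM in the aged+AA library.

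Across 29 points of library and cell group, the levels of 10351 genes were compared with those of each member by Pearson's r of log2(CPM + 1), as a description. The points share libraries and depth and are not independent. Nearest to Ly6a were Pgap1 (r = 0.923), Mapk11 (0.900) and BE692007 (0.868). Pgap1 encodes an enzyme that removes a fatty acid from the GPI inositol. It did not follow Ly6a between libraries in naive CD8 T cells, where it stood at 27.1, 23.6 and 36.5 CPM. Nor did it in memory CD8 T cells (25.0, 20.5 and 25.3 CPM) or B cells (225, 214 and 179 CPM). In naive CD4 T cells (31.0, 75.9 and 34.2 CPM) and memory CD4 T cells (73.2, 165 and 133 CPM) Pgap1 was highest in the aged library, as Ly6a was. Nearest to Ly6c1 were Pdlim4 (0.879), Trat1 (0.854) and Cd40lg (0.851), the latter the CD40 ligand of CD4 T cells. For Ly6c2 they were Glipr2 (0.807), Epsti1 (0.796) and Frmd4a (0.771). Those of Ly6d were the antibody genes Iglc2 (0.978), Iglc3 (0.971) and Ighd (0.971), and those of Ly6e were Ctss (0.919), a gene of the monocyte gate, Ryr1 (0.895) and Ppfibp2 (0.895). Between members, r was -0.566 for Ly6a and Ly6c2, -0.544 for Ly6c1 and Ly6c2 and 0.486 for Ly6d and Ly6e.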

How the data were processed

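Blood mononuclear cells of 3 libraries were profiled with 10x Genomics 3' chemistry. The authors deposited raw UMI counts per gene and barcode, and the matrices name Cell Ranger 4, per the file headers. Build mm10 and Seurat 3.1.0 are named in the submitters' processing notes. The deposited counts were not normalized, and the strand setting is not given in the sources used here. A barcode was called a cell above 0.1 of the UMI total at percentile 99 of the 5000 largest barcodes. Smaller ones with at least 500 UMIs were called when they differed from free RNA (barcodes ranked 45001 to 90000) at a false discovery rate of 0.01 over 10000 draws. Cells under 250 genes, over 10% mitochondrial or over 5% haemoglobin UMIs were left out, as were predicted doublets (Scrublet through scanpy 1.11.5; 4.03% to 4.32%). The 3 libraries then held median depths of 3610 to 4451 UMIs per cell before the haemoglobin limit.

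T cells needed 2 Cd3 UMIs and a Cd8 or Cd4 UMI. Naive cells needed at least 4 naive-gene UMIs and at most 3 (CD8) or 2 (CD4) memory-gene UMIs, memory cells at least 9 or 6. B cells needed 4 marker UMIs, NK cells 3, and monocytes 2 Csf1r and 9 myeloid UMIs. These cuts were set after the marker distributions were seen, and no Ly6 gene is in a gate. Counts were summed per library and group and divided by the group's total (CPM). Levels have exact Poisson, shares exact Clopper-Pearson and ratios exact conditional binomial intervals (scipy 1.17.1), for counting error only. Members and lists were chosen with earlier results of these data known. The 5 members are always named, beside the 3 genes most alike to each and up to 4 genes per list with the most UMIs or largest ratio. The ratio script was tested on simulated counts. Sequences come from GENCODE transcripts and RefSeq start-site windows of GRCm38, aligned with Biopython 1.88.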

Additional observations from a re-analysis of the deposited data

Results flagged for a closer look

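Ly6c2 ratios lay on opposite sides of 1 in NK cells and in CD8 T and B cells. From the young to the aged library it was 1.35 times as high in naive CD8 T cells, 1.36 times in memory CD8 T cells and 2.52 times in B cells, but 0.718 times as high in NK cells. From the aged to the aged+AA library it was 0.645 times as high in naive CD8 T cells, 0.943 times in memory CD8 T cells and 0.422 times in B cells, but 1.63 times as high in NK cells. Memory CD4 T cells, with 1.09 (0.700 to 1.74) and 0.855 (0.602 to 1.21), could be placed on neither side. The CD8 ratios of 1.35 and 1.36 stand beside median genes at 1.20 and 1.26, and the memory CD8 ratio of 0.943 lies above its median gene (0.884) and above 1 under other scalings. The B cell values stand at 6.62 to 16.7 CPM with free RNA near, and NK cells at 410.2 to 667 CPM. The difference between the cell groups was not tested, since each group of mice has 1 library, and both comparisons share the aged library.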

How the results depend on the processing

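No paired analysis was possible because each group has 1 library. Over 64 ratios of a member in a cell group, 679 values under the alternatives were computed. Of these, 585 stayed within the counting interval, 94 left it, 36 fell on the other side of 1 and 20 crossed the 2-fold limit. The number of pairs different between aged and young, 5, was 4 to 6 under all alternatives. Between aged+AA and aged the number, 2, was 1 with predicted doublets kept, 1 with no haemoglobin limit, 1 as a mean of per-cell CPM, 4 with gates set after thinning to 1500 UMIs and 3 with naive cells that had no memory-gene UMI. It was 2 under the other alternatives. Between memory and naive cells the number, 11, was 6 with gates set after thinning, where 15 pairs had enough UMIs, and 8 to 12 otherwise. The causes were not tested. Ly6a in memory CD4 T cells, aged over young, was 1.99, and 2.10 with doublets kept. In naive CD8 T cells with no memory-gene UMI, an alternative added after the data were seen, Ly6a stood at 37.7, 149.8 and 119 CPM. Depth limits Ly6c1 outside naive CD4 T cells, Ly6a in NK cells and all ratios of classical monocytes.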
